A study of Mus musculus with 34 samples.

Results

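The 44 genes described here encode the machinery that licenses and copies DNA and the E2F and cyclin E circuit that starts S phase. They were taken from a list of gene names and not by a rule on measured values, although earlier results of these data were known when the list was chosen. They are 44 of the 23509 genes in the count table of every mouse. Kidneys were harvested at P28 from 34 C57BL6 mice in 3 groups. *Pkd2*-KO mice (spelled "Pdk2KO" in the labels) received either PBS (PBS, n = 11) or 20 mg per kg RGLS4326, an oligonucleotide complementary to the seed of miR-17 (RGLS4326, n = 11), by subcutaneous injection at P10, P11, P12 and P19. Untreated non-transgenic mice of the same strain (UNT, n = 12) received no injection, so genotype and injection differ together between the PBS and UNT groups. In the model named in the study (Pkhd1/cre;Pkd2 F/F) both knockout groups carry floxed *Pkd2* alleles and a Cre under the *Pkhd1* promoter, which is active mainly in collecting duct and other tubules, so that other kidney cells keep the gene.

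A cell that enters S phase first loads the MCM helicase onto replication origins with the help of the origin recognition complex, Cdc6 and Cdt1. It then activates the helicase with Cdc45 and the GINS complex, and copies both strands with polymerases alpha, delta and epsilon, the sliding clamp and its loader. Most of these genes are transcribed by E2F factors once cyclin-dependent kinases have inactivated the retinoblastoma protein. Proliferation of tubule epithelium is a known feature of polycystic kidneys, whereas most tubule cells of the adult kidney are out of cycle.

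Libraries held between 17603122 and 54981992 reads assigned to genes. All 44 genes passed the filter on low counts, with counts per library between 10 (*Orc1*) and 4032 (*Mcm6*). Levels are given as CPM (counts relative to the TMM-scaled library size) and differences as log2 fold changes with their SE from edgeR. Reads that fell in no gene made up 9.84–11.3% of the total in UNT, 5.18–9.0% in PBS and 4.94–12.0% with RGLS4326. Alignments that were not unique made up 22.8–25.7%, 14.8–19.4% and 14.8–19.1%. The 10 genes with the most counts held 13.6–16.8%, 4.81–6.99% and 5.33–8.57% of the counts in genes. In either of these last measures UNT did not overlap the knockout groups. Cell type markers moved with the groups as well. The summed level of 5 proximal tubule markers was 8205–11154 CPM in UNT, 662–2387 CPM in PBS and 1587–2725 CPM in RGLS4326 kidneys, that of 5 macrophage markers was 79.8–147, 491–1336 and 446–876 CPM, and that of 5 fibroblast markers was 553–1382, 3015–6326 and 4002–5997 CPM. None of these 15 markers was at 0 in a whole group. The part of these shifts in the results below was not tested, and in RNA of bulk kidney more cells of a type and more RNA per cell cannot be told apart.

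To ask how the replication genes differ between knockout and normal kidneys, PBS was compared with UNT. Of the 44 genes, 34 were higher in PBS (called at an adjusted p under 0.05), 4 were lower, and 6 did not pass the test. The background was high in this comparison: 82.1% of the 15644 tested genes were called, 43.1% as higher and 39.0% as lower. The median log2 fold change of the 44 genes was 0.67, and that of all tested genes was 0.04. An increase by more than 0.5 on the log2 scale was called for 26 of the 44 genes and for 29.6% of all genes. In 19 of the 44 genes, and in 22.7% of all genes, every PBS mouse was above every UNT mouse, and in 0 of the 44 genes, against 19.8% of all genes, every PBS mouse was below every UNT mouse.

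**Figure D1:**
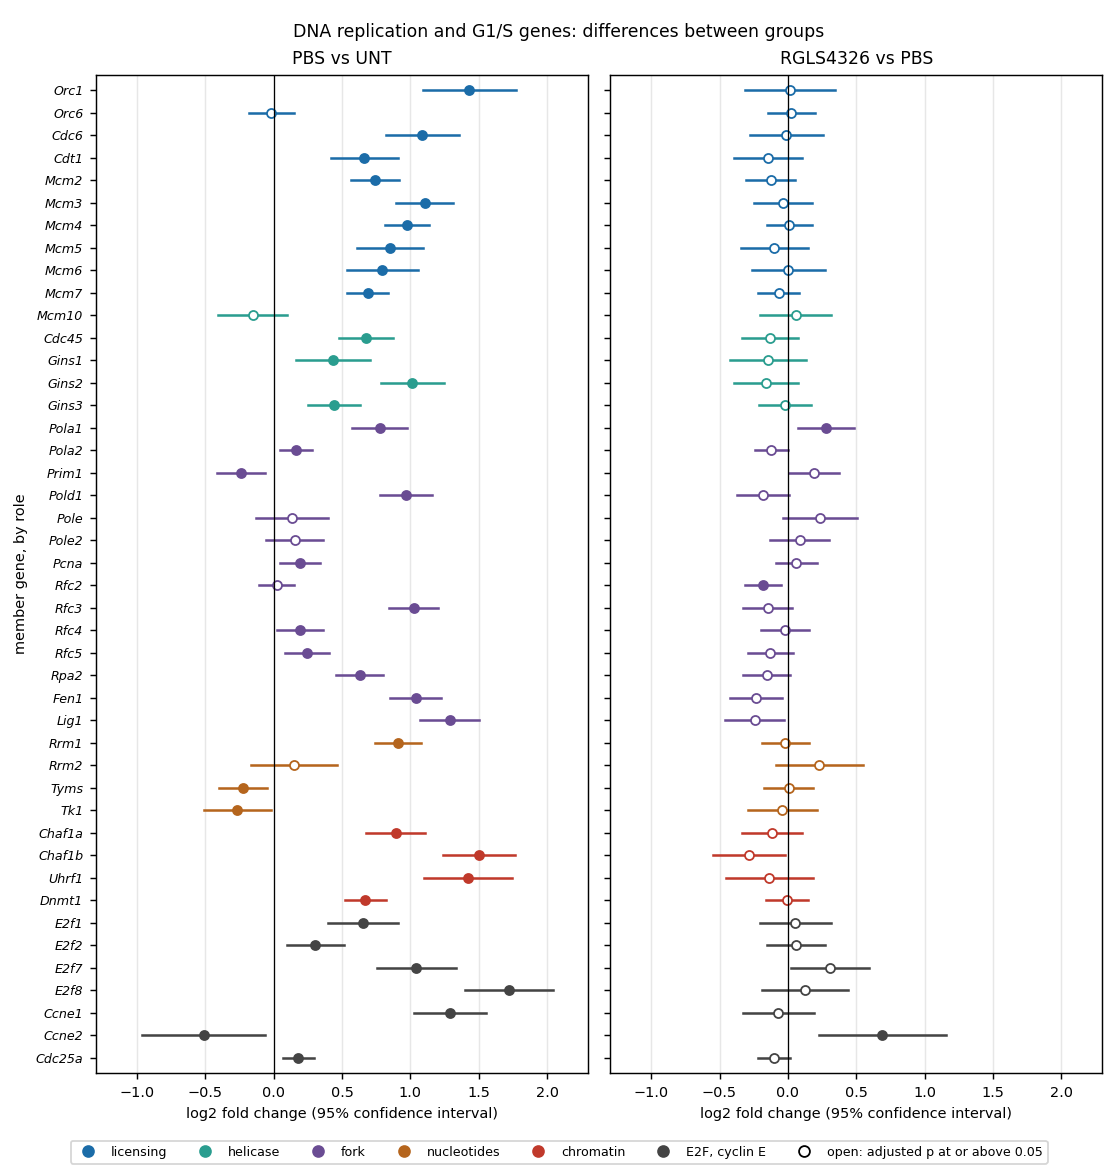
Log2 fold change of each of the 44 genes (vertical axis, grouped by role) in PBS vs UNT (left) and RGLS4326 vs PBS (right). Points are edgeR estimates, lines are 95% confidence intervals, and filled points passed an adjusted p of 0.05. On the left 34 filled points lie to the right of 0 and 4 to its left, and on the right 3 points are filled.

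Of the 10 licensing genes, 9 were higher in PBS, with *Orc6*, the subunit of the origin recognition complex most loosely bound to the others, as the exception at -0.02 ± 0.08 on the log2 scale (adjusted p = 0.859). *Mcm4*, a helicase subunit, ranged from 14.8 through a median of 20.7 to 25.8 CPM in UNT, from 31.9 through 39.2 to 54.9 CPM in PBS, and from 36.7 through 40.3 to 48.0 CPM in RGLS4326 mice. The UNT mice lay below all mice of the other groups, which overlapped each other, and the difference between PBS and UNT was 0.98 ± 0.08 on the log2 scale, or 1.97-fold (adjusted p = 1.8e-13). *Mcm6* had the highest CPM of the list, from 22.8 through 42.0 to 52.2 in UNT, from 49.3 through 67.9 to 108 in PBS and from 47.2 through 75.8 to 89.4 in RGLS4326 mice. Here the lowest PBS mice fell within the UNT range, and the increase was 0.80 ± 0.13 (adjusted p = 8.3e-07). *Mcm2* ranged from 18.0 through 25.6 to 30.8 CPM in UNT, from 31.4 through 42.8 to 55.6 CPM in PBS and from 32.5 through 37.6 to 48.7 CPM in RGLS4326 mice, again with no UNT mouse reaching the other groups, and rose by 0.74 ± 0.09 (adjusted p = 1.41e-09).

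The other licensing genes rose by between 0.66 (*Cdt1*, the loading factor destroyed in S phase) and 1.43 (*Orc1*, the subunit that marks origins, 2.70-fold) on the log2 scale. *Mcm3* rose by 1.11, *Cdc6*, the ATPase that recruits Cdt1, by 1.09, *Mcm5* by 0.85 and *Mcm7* by 0.69. Per kilobase of exon, the 6 subunits of the MCM hexamer spanned 3.67 (*Mcm2*) to 8.73 (*Mcm6*) CPM per kb in UNT, a ratio of 2.38. In PBS they spanned 6.13 to 15.1 CPM per kb with the same subunits at the ends, a ratio of 2.47. The length is that of all annotated exons merged, 6.956 kb for *Mcm2* and 4.666 kb for *Mcm6*. The ratios depend on it and do not measure a balance of subunits. By mean CPM in UNT, *Mcm2* (25.5) was above *Mcm3* (16.7), *Mcm5* (17.1) and *Mcm4* (20.7) and below *Mcm7* (30.3) and *Mcm6* (40.7). All 6 genes rose, and the order of the extremes was kept. *Orc1* was the lowest of the 44 genes in UNT at 0.16 CPM per kb and *Pcna*, the sliding clamp, the highest at 23.6 CPM per kb.

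E2F motifs were present near the start sites of many of the 44 genes. The motif was searched as TTTCCCGC, TTTGGCGC, TTTCGCGC and TTTGCCGC on both strands, from 250 bases before to 50 after each start in the RefSeq promoters of GRCm38.p6, where 38 of the 44 genes were matched. It was present for 18 of the 38 (47.4%), against 4.26% of the 11545 tested genes with a promoter and 2.26% of all 32851 windows. The 4 licensing promoters below are shown because they hold the motif in genes that rose, with motif letters in capitals. In *Mcm6* an overlapping pair of matches reads as a single block of capitals.

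*Orc1*, chr4:108579204-108579503, plus strand: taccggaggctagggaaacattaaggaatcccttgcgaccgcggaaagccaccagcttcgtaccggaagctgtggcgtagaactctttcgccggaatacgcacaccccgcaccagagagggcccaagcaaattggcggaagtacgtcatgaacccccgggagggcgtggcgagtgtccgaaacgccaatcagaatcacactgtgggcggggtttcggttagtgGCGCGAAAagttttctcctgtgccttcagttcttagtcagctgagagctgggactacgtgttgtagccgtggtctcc

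*Cdc6*, chr11:98907901-98908200, plus strand: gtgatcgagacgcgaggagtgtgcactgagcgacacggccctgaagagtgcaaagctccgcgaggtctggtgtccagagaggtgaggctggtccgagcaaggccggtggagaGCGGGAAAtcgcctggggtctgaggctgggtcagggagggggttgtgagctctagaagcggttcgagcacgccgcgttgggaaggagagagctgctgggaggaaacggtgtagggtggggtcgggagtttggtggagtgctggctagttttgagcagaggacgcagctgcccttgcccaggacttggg

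*Mcm3*, chr1:20820263-20820562, minus strand: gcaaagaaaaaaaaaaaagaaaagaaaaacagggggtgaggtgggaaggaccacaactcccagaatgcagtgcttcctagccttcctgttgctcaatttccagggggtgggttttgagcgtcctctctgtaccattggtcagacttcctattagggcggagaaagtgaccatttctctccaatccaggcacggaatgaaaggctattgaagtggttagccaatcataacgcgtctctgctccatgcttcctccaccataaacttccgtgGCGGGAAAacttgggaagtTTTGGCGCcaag

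*Mcm6*, chr1:128359656-128359955, minus strand: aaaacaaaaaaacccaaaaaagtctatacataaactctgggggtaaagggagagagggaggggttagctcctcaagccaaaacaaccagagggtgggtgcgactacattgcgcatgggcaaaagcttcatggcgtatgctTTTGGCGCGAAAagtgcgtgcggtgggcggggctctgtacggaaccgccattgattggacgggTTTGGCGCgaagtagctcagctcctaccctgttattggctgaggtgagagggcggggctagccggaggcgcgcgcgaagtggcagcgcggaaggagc

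Of the 18 genes with the motif, 17 were called higher in PBS vs UNT and 0 lower, with a median log2 fold change of 0.82. Of the 20 matched genes without it, 14 were called higher and 3 lower (*Prim1*, *Tyms* and *Tk1*), with a median of 0.44 and the highest value of all members, 1.72 for *E2f8*. The difference between these lists is a description, and the base composition of the promoters was not matched. The shorter core, each of the same motifs without its first T and so lying inside it, was found for 27 of the 38 (71.1%) and for 18.1% of tested genes. The CHR element of mitotic genes (TTTGAA or TTCGAA) was found for 9 (23.7%) against 16.6%, and the NF-Y box (CCAAT) for 24 (63.2%) against 42.1%.

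**Figure D2:**
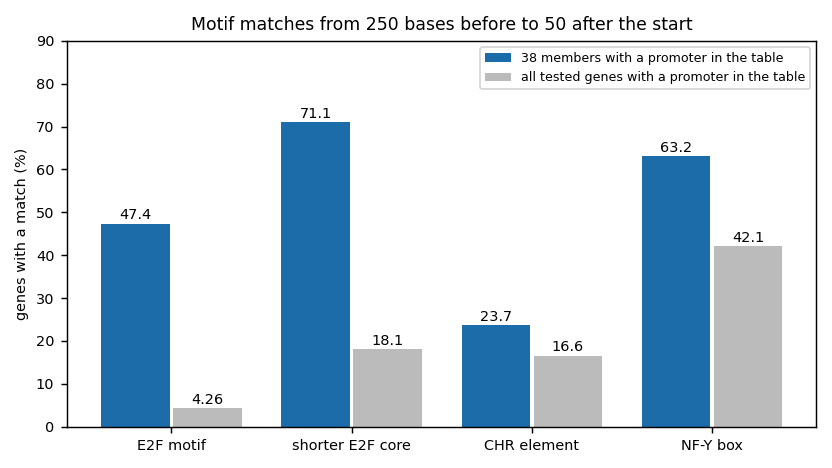
Share of genes (vertical axis, %) with a match to each motif (horizontal axis) in the promoter window, for the 38 matched replication genes (blue) and for all tested genes with a promoter (grey). The E2F motif shows the widest gap in proportion, 47.4% against 4.26%.

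Of the 5 helicase activation genes 4 were higher, with a list median of 0.44, and *Mcm10*, a scaffold of the active helicase, was at -0.15 ± 0.13 (adjusted p = 0.253). *Gins2*, a GINS subunit, ranged from 2.51 through 4.59 to 5.91 CPM in UNT, from 6.85 through 9.03 to 12.6 CPM in PBS and from 7.06 through 8.33 to 9.47 CPM in RGLS4326 mice. All UNT mice were below all others, and the increase in PBS was 1.01 ± 0.11 (adjusted p = 4.28e-10). Exons of *Gse1* on the opposite strand cover 67.3% of the exon bases of *Gins2*, so its counts are uncertain because the strand setting of the counting is not given. *Cdc45*, the helicase cofactor, rose by 0.67, *Gins1* by 0.43 and *Gins3* by 0.44.

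The fork genes split. Of 14, 10 were higher, *Prim1* was lower, and *Pole*, *Pole2* and *Rfc2* did not pass the test, with a list median of 0.22. *Lig1*, *Fen1* and *Rfc3* had the largest values. *Lig1*, the ligase that seals Okazaki fragments, ranged from 8.26 through 13.6 to 19.7 CPM in UNT, from 23.4 through 33.8 to 43.9 CPM in PBS and from 23.2 through 27.1 to 38.1 CPM in RGLS4326 mice. Every UNT mouse was below every cystic mouse, and the increase was 1.29 ± 0.11, or 2.44-fold (adjusted p = 1.99e-13). *Fen1*, the flap nuclease, rose by 1.04, although 84.2% of its exon bases are overlapped by other genes, mainly *Gm10143* on the opposite strand. *Pold1*, the catalytic subunit of polymerase delta, rose by 0.96 and *Rpa2*, a subunit of the single-strand binding protein, by 0.63.

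*Pcna* had the highest level of the fork genes, from 45.6 through 56.1 to 77.4 CPM in UNT, from 51.7 through 63.5 to 82.4 CPM in PBS and from 59.5 through 66.7 to 77.8 CPM in RGLS4326 mice. The groups overlapped over most of their range, and the increase was 0.19 ± 0.07, or 1.14-fold (adjusted p = 0.0136). Subunits of a complex did not move alike. Of the small subunits of the clamp loader, *Rfc3* rose by 1.02, *Rfc4* by 0.19 and *Rfc5* by 0.24, while *Rfc2* was at 0.02 ± 0.06 (adjusted p = 0.737), and their ratio of highest to lowest level per kilobase was 3.21 in UNT and 1.60 in PBS. In the primase complex *Pola1*, the catalytic subunit of polymerase alpha, rose by 0.77 and *Pola2*, its accessory subunit, by 0.16, whereas *Prim1*, the catalytic primase, fell. *Prim1* ranged from 11.2 through 15.1 to 18.1 CPM in UNT, from 9.92 through 12.1 to 16.2 CPM in PBS and from 11.1 through 14.6 to 16.96 CPM in RGLS4326 mice. All 3 ranges overlapped, and the difference between PBS and UNT was -0.24 ± 0.09 (adjusted p = 0.0132).

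The nucleotide supply genes moved in both directions. *Rrm1*, the large subunit of ribonucleotide reductase, ranged from 29.5 through 38.3 to 49.3 CPM in UNT, from 57.9 through 71.1 to 92.3 CPM in PBS and from 60.4 through 68.9 to 84.5 CPM in RGLS4326 mice. UNT mice did not reach the other groups, and *Rrm1* rose by 0.91 ± 0.08 (adjusted p = 2.59e-12). Its small partner *Rrm2*, which is made in S phase, ranged from 12.0 through 25.2 to 42.6 CPM in UNT, from 18.5 through 25.7 to 39.7 CPM in PBS and from 24.6 through 33.5 to 40.8 CPM in RGLS4326 mice. The UNT mice spanned the whole PBS range, and the difference was 0.15 ± 0.15 (adjusted p = 0.369). The enzymes of thymidylate supply fell slightly. *Tyms*, thymidylate synthase, ranged from 21.8 through 29.1 to 35.8 CPM in UNT, from 19.5 through 23.3 to 32.5 CPM in PBS and from 21.1 through 23.4 to 30.1 CPM in RGLS4326 mice, a difference of -0.22 ± 0.09 (adjusted p = 0.0162). *Tk1*, thymidine kinase, ranged from 11.3 through 19.8 to 23.3 CPM in UNT, from 11.9 through 15.1 to 22.7 CPM in PBS and from 11.0 through 14.6 to 21.3 CPM in RGLS4326 mice, a difference of -0.27 ± 0.12 (adjusted p = 0.0413). For both enzymes the medians of the knockout groups were lower, but the ranges overlapped.

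All 4 chromatin genes rose by more than 0.5. *Chaf1b*, a subunit of the histone chaperone CAF-1, ranged from 2.35 through 5.08 to 6.66 CPM in UNT, from 9.27 through 14.2 to 17.6 CPM in PBS and from 9.29 through 10.7 to 14.2 CPM in RGLS4326 mice. UNT was below all other mice, and the increase in PBS was 1.5 ± 0.13, or 2.83-fold (adjusted p = 5.55e-13). *Uhrf1*, which brings Dnmt1 to newly copied DNA, rose by 1.42 (2.68-fold) and *Chaf1a* by 0.89, the latter with 52.5% of its exon bases overlapped by *Ubxn6*. *Dnmt1*, the maintenance DNA methyltransferase, ranged from 29.0 through 36.7 to 43.3 CPM in UNT, from 40.5 through 60.1 to 70.4 CPM in PBS and from 50.2 through 58.5 to 64.7 CPM in RGLS4326 mice. Of the PBS mice 1 lay within the upper UNT range and the others above it, and the increase was 0.67 ± 0.07 (adjusted p = 3.15e-10).

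Of the 7 E2F and cyclin E genes, 6 were higher and *Ccne2* was lower. *E2f8*, an atypical repressor, ranged from 0.615 through 1.63 to 2.93 CPM in UNT, from 3.51 through 5.23 to 8.30 CPM in PBS and from 4.87 through 5.76 to 7.05 CPM in RGLS4326 mice. No UNT mouse reached the other groups, and the increase of 1.72 ± 0.16, or 3.30-fold, was the largest of the 44 genes (adjusted p = 3.65e-12). *E2f7*, its closest relative, rose by 1.04. *E2f1* is an activator that the study counts among the miR-17 targets of its mouse signature for in vitro work. The shorter gene list that the study used for *Pkd2*-KO mice leaves *E2f1* out. Its level ranged from 3.55 through 7.06 to 9.04 CPM in UNT, from 8.57 through 9.63 to 15.4 CPM in PBS and from 8.36 through 10.7 to 13.2 CPM in RGLS4326 mice. The lowest mice of the cystic groups overlapped the highest of UNT, and the increase was 0.65 ± 0.13 (adjusted p = 1.41e-05). *E2f2*, another activator, rose by 0.30.

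Of the cyclin E genes, *Ccne1* rose by 1.29, with no overlap between PBS and UNT. *Ccne2* ranged from 1.95 through 3.07 to 6.65 CPM in UNT, from 1.28 through 2.49 to 3.54 CPM in PBS and from 1.45 through 3.37 to 6.06 CPM in RGLS4326 mice. The 3 ranges overlapped, and *Ccne2* was lower in PBS than in UNT by -0.51 ± 0.22 (adjusted p = 0.0335). In the library sets alone the values were -0.19, -0.22 and -1.08, of which the last was called. *Ccne2* has 17.4% of its exon bases under *Ints8*, and in a fit adjusted for the percent of reads outside genes its sign changed, to 0.28 (adjusted p = 0.375). *Cdc25a*, the phosphatase that activates Cdk2, ranged from 14.9 through 15.9 to 19.3 CPM in UNT, from 16.6 through 18.8 to 19.3 CPM in PBS and from 15.1 through 17.5 to 21.005 CPM in RGLS4326 mice. The ranges overlapped, and *Cdc25a* rose by 0.18 ± 0.06 (adjusted p = 0.00344).

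**Figure D3:**
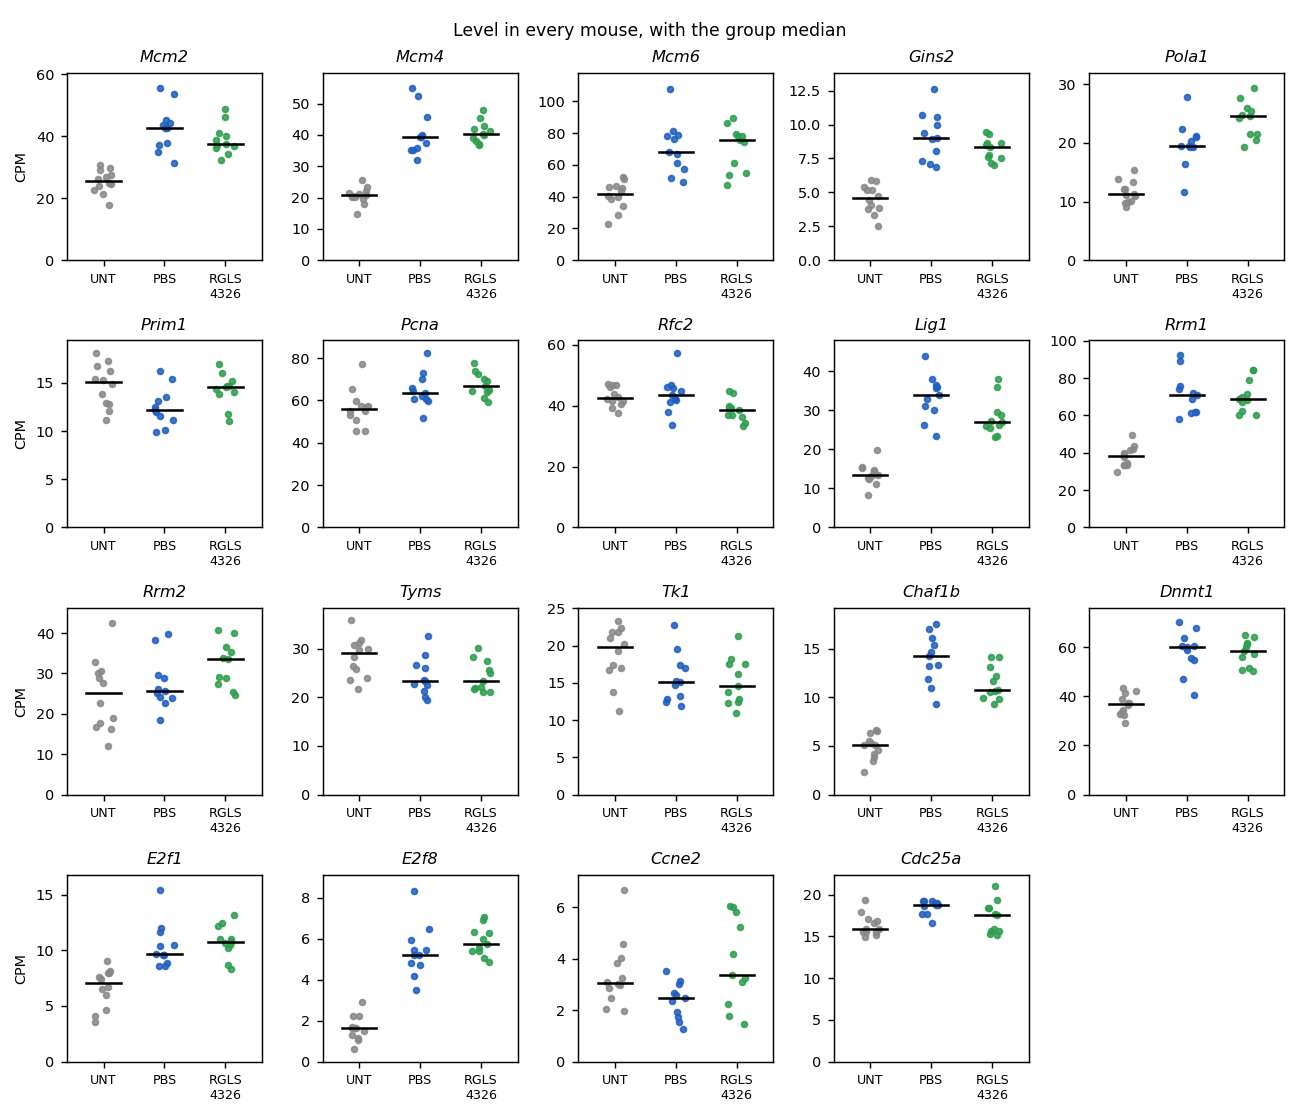
Level of 19 genes in every mouse (vertical axis, CPM from 0), by group; points are mice, and the black line is the group median. For *Mcm4*, *Lig1*, *Chaf1b* and *E2f8* all UNT points lie below the PBS and RGLS4326 points, whereas for *Tyms*, *Tk1*, *Rrm2* and *Ccne2* the groups overlap.

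The mice were not uniform within groups. The mean of log2(CPM + 1) over the 44 genes was 3.03–3.77 in UNT, 3.76–4.34 in PBS and 3.84–4.21 in RGLS4326 mice. PBS replicates 8 and 1 had the highest value of their group for 21 and 16 of the 44 genes, and PBS replicate 5 the lowest for 24. UNT replicate 3 was lowest in its group for 33 genes and UNT replicate 8 highest for 21. Without PBS replicates 1 and 8, 32 genes were called higher and 5 lower, and without UNT replicate 3, 33 and 4. The library numbers in the deposited names restart so that the mice fall into 3 sets, each with 3 or 4 mice of every group. Within the sets taken alone, 28, 25 and 26 genes were called higher in PBS vs UNT, against 37.0%, 35.9% and 33.8% of all tested genes, and 0, 2 and 1 lower, against 35.5%, 35.5% and 30.9%, with medians of 0.81, 0.50 and 0.71. The interaction test of edgeR called a difference between the sets for 0 of the 44 genes and 0 of all tested genes, with 3 and 2858 at an unadjusted p under 0.05, which does not show that the sets were alike. *Pola1* had the values 1.13, 0.83 and 0.35 in the sets alone, the last of them not called (adjusted p = 0.0972). In a fit adjusted for the percent of reads outside genes, 28 were called higher and 3 lower.

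**Figure D4:**
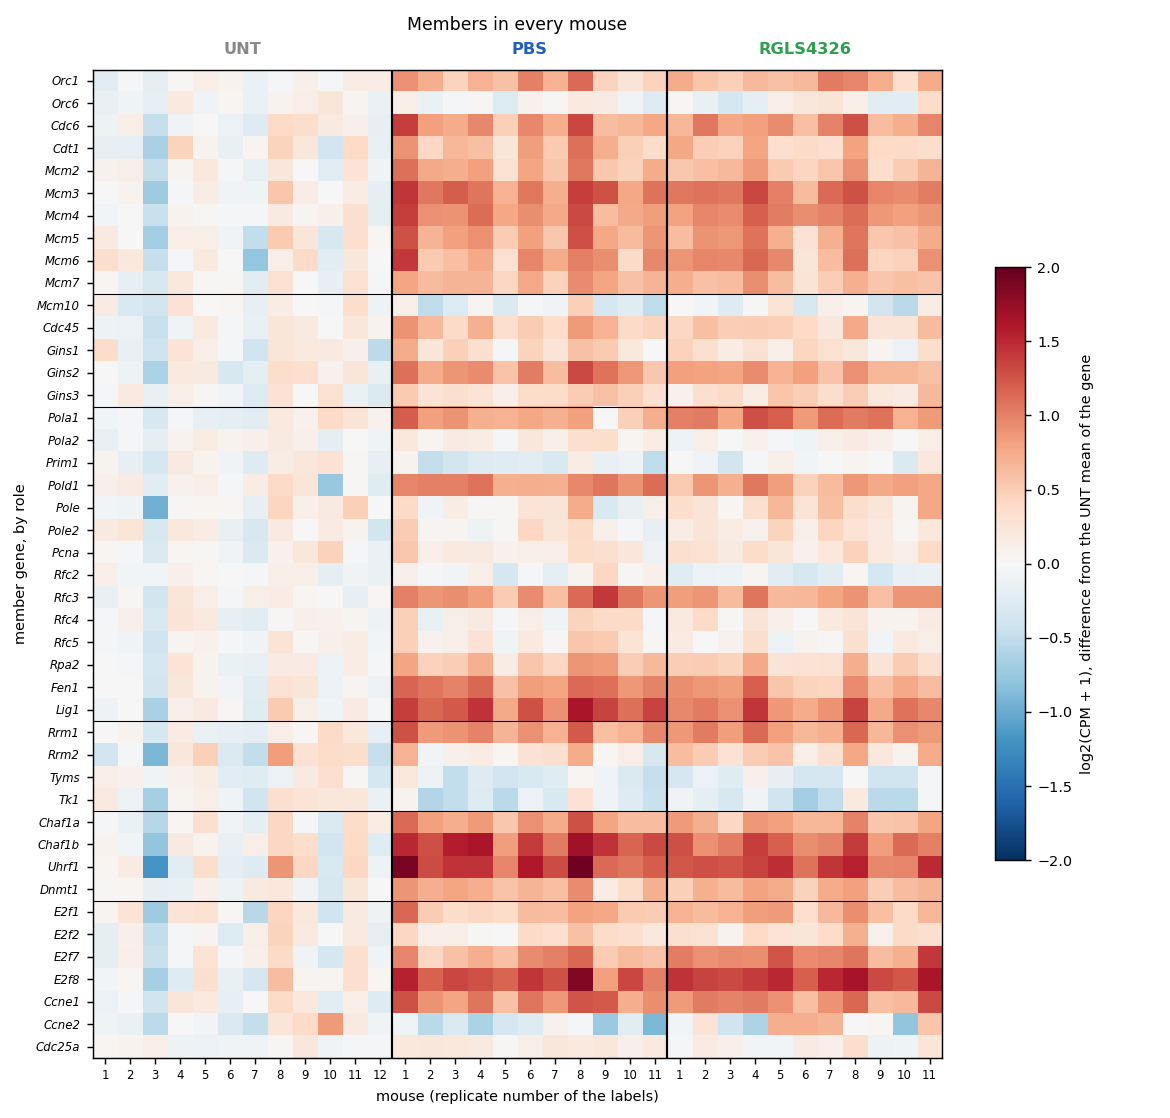
Each of the 44 genes (rows, by role) in each mouse (columns, by group and replicate number), as log2(CPM + 1) minus the mean of the gene over UNT mice; red is higher and blue lower. PBS mice had 32 to 43 genes above the UNT mean and RGLS4326 mice 34 to 43, while UNT mice had from 1 (replicate 3) to 42 (replicate 8) and so overlapped them.

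To ask whether the anti-miR changed these genes in cystic kidneys, RGLS4326 was compared with PBS. Of the 44 genes, 2 were called higher and 1 lower, or 3 in all, where 33.8% of the 15644 tested genes were called, 15.3% as higher and 18.5% as lower. At an unadjusted p under 0.05 there were 9 of the 44, against 46.4% of all tested genes, and DESeq2 called 4, against 36.4%. The median log2 fold change was -0.03, against 0.00 for all tested genes, and single values ran from -0.28 to 0.69. The median turned to 0.05 without PBS replicates 1 and 8, and to 0.01 in library set 2 alone and on adjustment for reads outside genes. The 95% confidence interval lay wholly between -0.5 and 0.5 for 39 genes, and the others were *Pole*, *Rrm2*, *Chaf1b*, *E2f7* and *Ccne2*. The groups overlapped in all 44 genes, and 0.0639% of all tested genes had groups without overlap.

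*Ccne2* was the gene called with the largest difference, 0.69 ± 0.23, or 1.61-fold (adjusted p = 0.0207), with an interval from 0.23 to 1.15. The values by mouse given above show that RGLS4326 mice reached from the lower PBS range to well above it. Within the library sets *Ccne2* differed by 0.21, 1.23 and 0.62, and by 0.17 when adjusted for reads outside genes (adjusted p = 0.678). *Pola1*, named here after its values were seen, ranged from 8.98 through 11.2 to 15.3 CPM in UNT, from 11.6 through 19.5 to 27.8 CPM in PBS and from 19.3 through 24.6 to 29.3 CPM in RGLS4326 mice. Most RGLS4326 mice were above the PBS median, the groups overlapped, and the difference was 0.28 ± 0.10 (adjusted p = 0.0332). In the library sets alone it was 0.06, 0.37 and 0.41.

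*Rfc2* ranged from 37.6 through 42.5 to 47.3 CPM in UNT, from 33.6 through 43.5 to 57.3 CPM in PBS and from 33.4 through 38.5 to 44.8 CPM in RGLS4326 mice. The RGLS4326 mice reached from just below the lowest PBS mouse to the middle of the PBS range, and the difference was -0.18 ± 0.06 (adjusted p = 0.029). Exons of *Lat2* cover 15.1% of the exon bases of *Rfc2*. These 3 calls were lost on adjustment for reads outside genes, a fit in which 89 of all tested genes were called, and *Rfc2* was also lost without PBS replicates 1 and 8 (adjusted p = 0.0545) and with only the 2 groups compared (adjusted p = 0.0606). *Pola1* was also lost with a replicate block (adjusted p = 0.0532). Without those 2 mice, 5 genes were called, all higher: *Ccne2*, *Pola1*, *Prim1*, *Pole* and *E2f7*. Without UNT replicate 3, 5 were called, 2 higher and 3 lower.

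By role, RGLS4326 and PBS differed in 0 of 10 licensing genes, 0 of 5 helicase genes, 2 of 14 fork genes, 0 of 4 nucleotide genes, 0 of 4 chromatin genes and 1 of 7 E2F and cyclin E genes. *Mcm4* was at 0.01 ± 0.08 (95% confidence interval from -0.16 to 0.18), *Mcm6* at 0.00 ± 0.13 (from -0.26 to 0.27) and *Pcna* at 0.06 ± 0.07 (from -0.09 to 0.21). *Lig1* and *Chaf1b* were lower by values that did not pass the adjustment, -0.24 ± 0.11 (adjusted p = 0.0747) and -0.28 ± 0.13 (adjusted p = 0.0842), as was *Fen1* at -0.23 ± 0.09 (adjusted p = 0.0512). In sets 1, 2 and 3 alone edgeR called 0, 2 and 0 of the 44 genes (0, 6 and 5 at an unadjusted p under 0.05), where 0.343%, 25.5% and 0.00% of all tested genes were called (3421, 6361 and 2826 genes at an unadjusted p under 0.05), so the counts of 0 tell nothing about these genes. The interaction test called a difference between the sets for 0 of the 44 and 0 of all tested genes, with 0 and 1126 at an unadjusted p under 0.05.

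Because RGLS4326 is directed against the miR-17 seed, the longest 3′UTR that GENCODE M21 lists per gene was searched for matches to it. The family shares the seed at bases 2 to 8, shown in capitals in the mature sequences from RefSeq. The members inside *Mcm7* (chr5:138164583-138172422, minus strand) are miR-106b, which lies in an intron of 2 of the 2 transcripts that span it, and miR-93, in an intron of 2 of 3. The mature miRNAs themselves were not measured in these libraries, and *Mcm7* mRNA rose by 0.69 ± 0.07 in PBS vs UNT and was at -0.07 ± 0.07 in RGLS4326 vs PBS (adjusted p = 0.483).

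miR-17-5p: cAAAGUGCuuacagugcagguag

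miR-20a-5p: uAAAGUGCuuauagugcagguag

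miR-93-5p: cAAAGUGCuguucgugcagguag

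miR-106b-5p: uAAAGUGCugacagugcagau

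A match was present for 10 of the 44 genes (22.7%), which is close to the 21.2% of 14186 tested genes with a 3′UTR, and a full 8mer for 2 (4.55%) against 4.25%. Those sites are printed with 10 bases on each side, with the match in capitals, for the 8mers of *Mcm3* and *Cdc25a*, the 2 sites of *E2f1* and the site of *Ccne2*, the only one of the 10 genes that was called in the comparison.

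*Mcm3* 8mer, chr1:20803155-20803182, minus strand: ccacccccagGCACTTTAgtccaggaag

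*Cdc25a* 8mer, chr9:109893048-109893075, plus strand: tcacaggaagGCACTTTAggcagcttcc

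*E2f1* first 7mer-m8, chr2:154560202-154560228, minus strand: ggctctaactGCACTTTtggtgtcctt

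*E2f1* second 7mer-m8, chr2:154559687-154559713, minus strand: cctccagtctGCACTTTgatttgtttc

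*Ccne2* 7mer-A1, chr4:11203940-11203966, plus strand: ataagaaagtCACTTTAttgcacacta

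In RGLS4326 vs PBS the 10 genes with a site (*Mcm3*, *Mcm7*, *Gins2*, *Rpa2*, *Rrm2*, *Chaf1a*, *E2f1*, *E2f2*, *Ccne2* and *Cdc25a*) had a median log2 fold change of -0.05, and the 34 without one had -0.02. *E2f1* with its 2 sites was at 0.05 ± 0.13 (adjusted p = 0.756, 95% confidence interval from -0.20 to 0.31). *Mcm3* and *Cdc25a* were at -0.03 ± 0.10 (adjusted p = 0.821) and -0.10 ± 0.06 (adjusted p = 0.156). The median length of the 3′UTRs searched was 699 bases for the 44 genes and 1150 bases for the tested genes. A seed match is a description of the sequence and not a measured site.

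Treated knockout kidneys were also compared with normal ones. In RGLS4326 vs UNT, 32 of the 44 genes were higher and 3 lower (*Rfc2*, *Tyms* and *Tk1*), where 77.7% of all tested genes were called, 40.8% as higher and 36.9% as lower, and the median of the 44 was 0.62. An increase of more than 0.5 was called for 25 of the 44 and for 27.8% of all genes. *E2f8* was higher by 1.85 ± 0.16, *Pola1* by 1.053 ± 0.10 and *E2f1* by 0.71 ± 0.13. *Rrm2* was higher by 0.38 ± 0.15 (adjusted p = 0.025) and *Ccne2* was at 0.18 ± 0.22 (adjusted p = 0.462). This comparison shares its mice with those above and is not independent of them.

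Of 41 other replication genes, 18 were higher (43.9%, against 43.1% of all tested genes) and 10 lower in PBS vs UNT, with a median of 0.10, so the share called higher was near that of all genes. The rises with the smallest p were *Prim2*, the large primase subunit (0.90 ± 0.08), *Ticrr*, which is needed for origin firing (1.73 ± 0.15), and *Dck*, deoxycytidine kinase (0.85 ± 0.08). Those that fell included the origin recognition subunits *Orc3* (-0.73 ± 0.06), *Orc4* (-1.02 ± 0.12) and *Orc5* (-0.30 ± 0.06), the helicases *Dna2* (-0.98 ± 0.12) and *Mcm8* (-0.38 ± 0.09), the licensing inhibitor *Gmnn* (-0.50 ± 0.10), *Rrm2b*, the reductase subunit used outside S phase (-0.48 ± 0.10), the histone chaperone *Asf1a* (-0.45 ± 0.07) and *Pole4* (-0.23 ± 0.06). Of these, *Asf1a* has 48.0% of its exon bases under *Mcm9*. *Prim2* rose where its partner *Prim1* fell, and of the origin recognition complex *Orc1* rose, *Orc3*, *Orc4* and *Orc5* fell, and *Orc2* and *Orc6* did not pass the test. In RGLS4326 vs PBS, 7 were higher and 3 lower, or 24.4% against 33.8% of all tested genes. The former included *Orc4* (0.52 ± 0.12), *Orc3* (0.26 ± 0.06) and *Orc5* (0.20 ± 0.06), and the latter were *Rnaseh2a*, the catalytic subunit of RNase H2 (-0.32 ± 0.08), *Gins4*, the remaining GINS subunit (-0.21 ± 0.07), and *Pold4* (-0.25 ± 0.09).

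Of 25 genes of the G1/S switch, 14 were higher and 6 lower in PBS vs UNT, or 80.0% called, near the 82.1% of all tested genes. *Cdkn2a*, which encodes p16 and p19ARF and is counted among the 14, passed the filter on low counts only through the knockout groups. Its call in PBS vs UNT was fixed by this and is no support, so for that comparison *Cdkn2a* is given as levels. It had 0 to 2 counts per library in UNT, where the median was 0.013 CPM, and ranged from 1.49 through 3.28 to 7.41 CPM in PBS and from 0.65 through 1.84 to 3.38 CPM in RGLS4326 mice. *Cdkn2b*, which encodes p15, rose by 2.76 ± 0.18, and *Cks1b*, a cofactor of Cdk2 and of p27 degradation, by 1.68 ± 0.11. The genes that fell were *Cdkn1c* (-1.12 ± 0.09), *E2f5* (-0.86 ± 0.08), *Rb1* (-0.77 ± 0.11), *Tfdp2* (-0.38 ± 0.07), *Rbl2* (-0.36 ± 0.07) and *Cdkn1b* (-0.16 ± 0.07). *Cdkn1b* and *Cdkn1c* encode inhibitors of cyclin-dependent kinases, but other inhibitor genes of the list, named here after their values were seen, rose, namely *Cdkn1a* (2.80 ± 0.21), *Cdkn2c* (0.24 ± 0.10) and *Cdkn2d* (0.37 ± 0.08). Genes on the opposite strand overlap 30.7% of the exon bases of *Cdkn1c*, 20.97% of *Rbl2* and 14.9% of *Rb1*. In RGLS4326 vs PBS, 4 were higher and 6 lower, or 40.0% called against 33.8% of all tested genes. *Rb1* rose by 0.45 ± 0.11, its relative *Rbl1* by 0.31 ± 0.08 and *E2f5* by 0.25 ± 0.08 and *Tfdp2*, an E2F partner, by 0.18 ± 0.07, while *Cdkn2a* fell by 1.01, the D-type cyclin gene *Ccnd3* by 0.35 and *E2f4* by 0.19.

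All 15 mitosis genes were higher in PBS vs UNT, against 43.1% of all tested genes, with a median of 0.67. The smallest p belonged to the checkpoint kinase *Bub1b* (0.98 ± 0.12), the mitotic kinase *Plk1* (1.11 ± 0.16) and *Aurkb* of the chromosomal passenger complex (1.1 ± 0.16). In RGLS4326 vs PBS, 3 of the 15 were higher (20.0%, against 15.3% of all tested genes) and 0 lower (against 18.5%), with a list median of 0.17. The 3 were the checkpoint kinase *Bub1* (0.61 ± 0.20, adjusted p = 0.0193), the kinetochore gene *Cenpf* (0.53 ± 0.18, adjusted p = 0.0227) and the spindle motor *Kif11* (0.48 ± 0.18, adjusted p = 0.0422). In RGLS4326 vs UNT all 15 were higher, against 40.8% of all tested genes, with a median of 1.01. *Mki67*, a widely used proliferation marker named outside the rule for this reason, rose by 0.60 ± 0.17 in PBS vs UNT, from a range of 17.2 through 39.0 to 91.3 CPM in UNT to one of 44.4 through 65.5 to 84.3 CPM in PBS mice, which lay inside the UNT range. In RGLS4326 mice *Mki67* ranged from 61.1 through 81.1 to 122 CPM, and its difference from PBS was not called.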

How the data were processed

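The authors prepared stranded polyA libraries from kidney RNA, trimmed the reads with Trim Galore, mapped them with STAR to GRCm38 (mm10) and counted uniquely mapped reads per gene with HTSeq (0.6.1 per the labels). The deposited values were raw counts per gene symbol for each mouse, not normalized and not pooled. The gene annotation and strand setting are not given in the sources used here. The labels placed 11 mice in the PBS group, more than the study's text states.

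Counts were scaled by TMM and tested with the quasi-likelihood F test of edgeR (4.0.16, R 4.3.3), two-sided, in a single fit of 34 libraries and 3 groups, after filterByExpr had kept 15644 genes. Benjamini-Hochberg adjustment covered all tested genes, and adjusted p denotes this value throughout. DESeq2 (1.42.0), RLE factors, no filter, covariates, 2-group fits, library sets alone and left-out mice were alternatives. The procedure was tested on simulated data. Separate mice are replicates. Rows of reads in no gene, ambiguous or not unique were left out of library sizes.

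The 44 genes, the lists and the tests were chosen with earlier results of these data known. Values by mouse are given for the gene of each role with the smallest p in PBS vs UNT, the smallest p in RGLS4326 vs PBS or the highest CPM, for *E2f1*, and for genes called against the majority. For the lists of other replication, G1/S and mitosis genes, up to 3 genes with the smallest p in each direction and any called against the majority are named. The result of 1 gene of these lists is not reported here. Marker lists of other kidney segments, podocytes, endothelium, T, B and erythroid cells were also measured, and their levels stand in the closing section. Exon overlap, lengths and 3′UTRs came from GENCODE M21 on GRCm38, and promoters and miRNAs from RefSeq GRCm38.p6. Python 3.11.15 with numpy 2.4.6, pandas 2.3.3, scipy 1.17.1 and matplotlib 3.10.9 was used.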

Additional observations from a re-analysis of the deposited data

How the results depend on the processing

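In PBS vs UNT the counts of genes called higher and in all stayed within 1.5 times of 34 and 38 in every alternative run, and the genes called lower, 4, numbered 0, 2 and 1 in library sets 1, 2 and 3 alone, with a median log2 fold change of 0.50 in set 2. Of genes called in either fit, signs turned for *Pola2* in set 2 alone (-0.047) and, on adjustment for reads outside genes, for *Rfc2* (-0.19, adjusted p = 0.0351) and *Ccne2* (0.28, adjusted p = 0.375). In RGLS4326 vs PBS the few calls moved more. Genes called higher, 2, numbered 0 in set 1, 0 in set 3, 0 on adjustment for reads outside genes and 5 without PBS replicates 1 and 8. Genes called lower, 1, numbered 2 with DESeq2, with RLE factors and with the set as a term, 3 without UNT replicate 3, and 0 in sets 1, 2 and 3, on that adjustment and without PBS replicates 1 and 8. In all, 3 calls became 0 in set 1, in set 3 and on that adjustment, and 5 without PBS replicates 1 and 8 or without UNT replicate 3. In RGLS4326 vs UNT the 3 genes called lower became 0 in sets 1 and 3. Sets alone hold fewer mice. For the other changes the cause was not tested. Leaving out PBS replicates 1 and 8 or UNT replicate 3 was chosen after seeing the data.

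Single genes were recomputed for all 44 in PBS vs UNT (528 values) and for the 19 given by mouse in each of the other comparisons (228 values). Of these, 466 in PBS vs UNT, 192 in RGLS4326 vs PBS and 211 in RGLS4326 vs UNT kept their sign and their side of the threshold, 1, 4 and 2 gained a call, and 49, 13 and 12 kept their sign but lost the call, while 9, 19 and 3 that were called in neither fit changed sign. In PBS vs UNT these were values of *Rfc2*, *Orc6*, *Pole* and *Rrm2*, and *Rfc2* was below 0 with DESeq2, with RLE factors and with no filter. Mice of different groups share replicate numbers, but with a replicate block 33 genes were called higher and 3 lower in PBS vs UNT, and 1 higher and 3 lower in RGLS4326 vs PBS. Deviations of same-numbered mice correlated with medians of -0.07, 0.05 and -0.04 over 11 numbers in the 3 comparisons, and 0, 1 and 1 of them correlated best with their own number, so the numbers are not taken to pair mice. Within the promoter window the E2F share was 47.4%, against 4.26% of tested genes, and with the shorter core 71.1% against 18.1%. From 100 bases before to 50 after the start it was 34.2% against 2.31%. Depth limits the lowest gene, *Orc1*, with 10 counts in its lowest library.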

Other observations

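Levels of the other marker lists also differed between groups, given here as summed CPM from the lowest to the highest mouse. Markers of the thick ascending limb summed to 5855–9485 in UNT, 2219–4346 in PBS and 3365–4958 in RGLS4326 mice, and those of the distal convoluted tubule to 1041–1872, 148–342 and 257–441. Principal cell markers summed to 304–569, 335–1520 and 207–1302, and intercalated cell markers to 234–339, 149–235 and 112–214. Podocyte markers summed to 198–253, 177–231 and 179–230, and endothelial markers to 346–438, 278–413 and 359–453, so these ranges overlapped. T cell markers summed to 3.46–6.01, 10.4–33.2 and 7.51–15.6, and B cell markers to 1.94–4.57, 4.92–11.9 and 3.46–7.03. Of the 6 erythroid markers 1 passed the filter, and *Hbb-bt* was at 0 in every group. The part of these shifts in the levels of the replication genes was not tested.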
